A study of Mus musculus with 16 samples.

Results

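The regions described here are the H3K27me3 peaks that were called in PCGF5-depleted NPC alone. A peak of the shPCGF5 NPC list was taken when no base of it lay in an H3K27me3 peak of wild type NPC or of wild type ES, and 4938 of the 14759 peaks of that list (33.5%) met this rule. They are called shPCGF5-alone peaks below, and the 4153 peaks of wild type NPC that overlapped no peak of shPCGF5 NPC or of wild type ES, the same rule turned around, are called wild type-alone peaks. The regions were chosen by the measured peak calls of these 3 lists, so their heights and widths are a description, and a list without a peak does not show that the mark was missing.

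The study set wild type cells against cells with less PCGF5, a subunit of Polycomb repressive complex 1, before and after neural differentiation of mouse ES, by ChIP-seq. All cells came from the 46C mES line, which carries GFP in the Sox1 gene, and NPC were taken on day 6 after suspension culture toward neural fate had begun. The depleted cells carry the genotype label shPCGF5, and the methods of the study describe lines picked as clones after selection for a hairpin vector. The Flag-PCGF5 libraries came from cells with a Flag tag knocked into the Pcgf5 gene, which the labels give as wild type. Of 16 libraries, 1 per group, 10 had a peak list, namely H3K27me3 and H2AK119ub1 in wild type and shPCGF5 ES and NPC, and Flag-PCGF5 in ES and NPC. With 1 library per group no difference between groups has a replicate check and none was tested, and the 95% intervals given cover counting error only. The lists hold no expression values, so neither the depletion of PCGF5 nor the neural identity of the NPC could be checked. Read depth is not given in the lists.

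Polycomb repressive complex 2 places H3K27me3, the trimethylation of a lysine of histone H3, and complex 1 places H2AK119ub1, a single ubiquitin on histone H2A. Both marks gather at CpG-rich promoters of silent developmental genes in ES. When cells take up a lineage, the genes of that lineage lose H3K27me3 and genes of other lineages keep or gain it.

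Sequence was read from mm9 (NCBIM37), plus strand, for the highest-scoring regions at promoters without a wild type peak, for 1 of the highest-scoring regions far from promoters, and for 1 region of Id3, which was picked after its values were seen. CpG dinucleotides are in capitals. A region wider than 300 bases is shown by the 300 bases around its centre, 1 region was passed over because the stretch touched an untranslated part of an exon, and not every region that ranked high enough is shown here. The promoter stretches of Tox, which codes for an HMG-box factor, of 1700045I11Rik, of Cga, the alpha subunit of the glycoprotein hormones, and of Kctd15, a BTB-domain protein that restrains neural crest formation, are these.
Tox, chr4:6916102-6916401: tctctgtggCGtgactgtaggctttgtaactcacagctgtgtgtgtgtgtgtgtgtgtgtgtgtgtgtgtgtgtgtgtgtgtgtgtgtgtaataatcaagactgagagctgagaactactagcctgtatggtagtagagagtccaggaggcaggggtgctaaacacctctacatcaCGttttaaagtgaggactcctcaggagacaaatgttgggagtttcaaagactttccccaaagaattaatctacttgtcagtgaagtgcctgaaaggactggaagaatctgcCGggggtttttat
1700045I11Rik, chr4:42043125-42043424: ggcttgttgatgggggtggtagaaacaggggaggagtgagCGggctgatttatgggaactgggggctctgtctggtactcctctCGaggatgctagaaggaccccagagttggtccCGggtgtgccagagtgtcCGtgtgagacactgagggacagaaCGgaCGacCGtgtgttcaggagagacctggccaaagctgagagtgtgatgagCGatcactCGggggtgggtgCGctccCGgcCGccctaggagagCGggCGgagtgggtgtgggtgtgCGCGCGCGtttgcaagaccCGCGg
Cga, chr4:34838982-34839281: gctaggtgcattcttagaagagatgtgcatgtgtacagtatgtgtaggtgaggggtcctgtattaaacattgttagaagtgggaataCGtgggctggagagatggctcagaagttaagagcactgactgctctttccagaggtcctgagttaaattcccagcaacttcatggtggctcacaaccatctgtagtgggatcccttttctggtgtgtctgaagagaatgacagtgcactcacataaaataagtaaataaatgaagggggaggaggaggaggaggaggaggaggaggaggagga
Kctd15, chr7:35437905-35438204: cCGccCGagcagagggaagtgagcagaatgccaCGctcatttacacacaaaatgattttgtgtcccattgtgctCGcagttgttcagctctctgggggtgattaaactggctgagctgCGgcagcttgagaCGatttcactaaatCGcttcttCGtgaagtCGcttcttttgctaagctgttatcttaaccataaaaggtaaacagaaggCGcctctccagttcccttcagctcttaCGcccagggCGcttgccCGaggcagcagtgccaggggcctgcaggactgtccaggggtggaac
The stretch of Id3, an inhibitor of basic helix-loop-helix factors, lies in the first part of the gene.
Id3, chr4:135699913-135700212: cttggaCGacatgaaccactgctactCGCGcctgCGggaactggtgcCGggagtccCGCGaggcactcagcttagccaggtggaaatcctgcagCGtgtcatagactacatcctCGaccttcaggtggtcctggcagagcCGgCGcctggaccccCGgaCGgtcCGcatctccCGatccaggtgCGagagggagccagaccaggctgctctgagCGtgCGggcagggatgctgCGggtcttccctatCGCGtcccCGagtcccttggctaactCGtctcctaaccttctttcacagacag
The stretch in an intron of Pappa, a secreted protease, lay over 100 kb from every wild type H3K27me3 peak.
Pappa, chr4:64916591-64916868: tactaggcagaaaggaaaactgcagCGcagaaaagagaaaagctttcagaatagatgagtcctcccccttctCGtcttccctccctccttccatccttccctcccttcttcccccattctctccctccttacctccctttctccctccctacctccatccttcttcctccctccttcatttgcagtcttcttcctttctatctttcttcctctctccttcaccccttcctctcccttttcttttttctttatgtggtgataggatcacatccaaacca
They show how unlike the regions were. The Id3 stretch held 23 CpG, the 1700045I11Rik stretch 20 and the Kctd15 stretch 13, with observed to expected ratios of 0.767, 0.756 and 0.609. The Tox stretch held 3, the Pappa stretch 2 and the Cga stretch 1.

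The shPCGF5-alone peaks were narrow and low among the peaks of their own library. Their median width was 265 bp and their median fold enrichment over background, as the authors' peak caller gave it, was 3.93, against 454 bp and 4.24 for the other 9821 peaks of the list. The narrowest was 180 bp wide, which is the shortest width in the list, and the widest 2495 bp. Together they covered 1.57 Mb, 19.2% of the bases under shPCGF5 NPC peaks, and made 4247 regions when peaks within 1000 bp were joined. Their share fell with the score of the peak, from 48.9% of the lowest-scoring 10% of the list to 5.35% of the highest-scoring 10%.

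The 10 shPCGF5-alone peaks with the highest score held gene neighbourhoods of several kinds. The first, with a −log10 p-value of 37.6 and a fold of 5.90, was a 232 bp region at chr6:114550476-114550707, 42557 bp upstream of Atg7, an autophagy gene. It lay 260 bp from a wild type ES peak and was also overlapped by H3K27me3 of shPCGF5 ES and by H2AK119ub1 of wild type ES, shPCGF5 ES and shPCGF5 NPC. The region with the highest fold, 10.3, lay at chr4:135643659-135644178 between genes, 34611 bp from the start of Rpl11, a ribosomal protein gene. Next in fold, at 9.97, was a 923 bp region in an intron of Cntfr, a receptor subunit for ciliary neurotrophic factor, at chr4:41643489-41644411 and 122 bp inside the gene. It lay 318 bp from a wild type NPC peak. The Tox region (chr4:6915897-6916606, fold 8.49) was in contrast 1247242 bp from the nearest wild type NPC peak. A region 4855 bp downstream of the start site of Foxa2, past the end of the gene, a forkhead factor of endoderm and floor plate, had a fold of 7.80. Of the other 5, regions 20412 bp upstream of Fstl4 and 1383 bp upstream of Gm6320 had folds of 7.28 and 7.86, and 3 lay on the Y chromosome with folds of 3.03 to 3.46, between 237122 and 319004 bp from the nearest protein-coding start site, that of Gm3395.

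Most of the shPCGF5-alone peaks lay outside promoters. The centre of 2083 of them (42.2%, 95% Wilson interval 40.8 to 43.6) lay no more than 2500 bp from where a protein-coding transcript starts, compared with 51.6% of all shPCGF5 NPC H3K27me3 peaks. Windows of that size make up 5.37% of the assembled bases. A further 162 (3.28%) lay in exons, 900 (18.2%) in introns and 1793 (36.3%) between genes. Regions shared with both wild type lists were at promoters more often, at 65.5%, and the wild type-alone peaks stood between, at 48.1%. Peaks shared with wild type ES and not wild type NPC had a like share, 41.3% (38.3 to 44.3). The median distance from the centre to the nearest start site was 3606 bp (3333 to 3940), against 1823 bp (1758 to 1904) for the other peaks of the list. At promoters the shPCGF5-alone peaks were spread over both sides of the start site, with 47.1% upstream (45.0 to 49.2). Of the other peaks 38.3% were (37.0 to 39.5). Those shared with wild type NPC and not wild type ES were close to the regions, at 45.0% (43.2 to 46.9), and the wild type-alone peaks had 42.0%. The lower shares were in peaks shared with both wild type lists, 32.5%, and with wild type ES only, 28.6%.

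The regions fell into a population beside wild type NPC domains and a population far from them. The median distance to the nearest wild type NPC H3K27me3 peak was 4072.5 bp (3420 to 4750), but few regions were at that distance. The 25th percentile was 597 bp and the 75th was 74203 bp. In counts, 1639 regions (33.2%) were within 1 kb of a wild type NPC peak, 2555 (51.7%) within 5 kb and 2789 (56.5%) within 10 kb, and 1051 (21.3%) were over 100 kb away. For 537 (10.9%) no wild type peak of either NPC or ES lay within 100 kb. The nearest wild type ES peak was at a median of 6465 bp, and the nearest H3K27me3 peak of shPCGF5 ES at 3319.5 bp. The rule excludes overlap and so sets the shortest distance, and the median depends on it. With a wild type peak within 1000 bp counted as overlap it was 37834 bp, with 26.8% of regions within 5 kb, and with peaks within 1000 bp merged it was 28082 bp, with 31.8%.

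**Figure D1:**
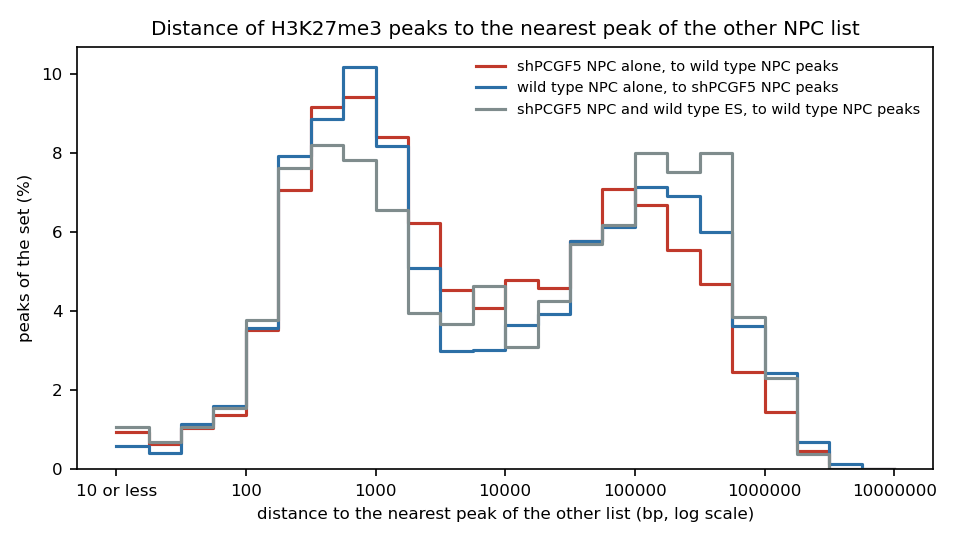
Distance from each H3K27me3 peak to the nearest peak of the other NPC list, on a log scale in bins of 0.25, as the percentage of the peaks of each set: the 4938 shPCGF5-alone peaks, the 4153 wild type-alone peaks and the 1035 shPCGF5 NPC peaks that are also in wild type ES and not in wild type NPC. All 3 sets have a mode between 100 and 10000 bp and another beyond 10000 bp.

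The wild type-alone peaks lay at like distances from shPCGF5 NPC peaks. Of these, 34.3% were within 1 kb, 49.9% within 5 kb and 1120 of 4153 over 100 kb away, with a median of 5036 bp (3796 to 6929). Closeness to a domain of the other genotype was therefore common to the regions called in either NPC list alone. The wild type NPC peaks that flank the regions were mostly kept in shPCGF5 NPC. Of the 1962 wild type peaks that were nearest to a shPCGF5-alone peak within 5 kb, 70.3% (68.2 to 72.3) were also overlapped by an shPCGF5 NPC peak, against 58.5% of all wild type NPC peaks. Between wild type NPC peaks within 5 kb on each side lay 540 of the regions. The gap from flank to flank had a median of 2051 bp (1797 to 2356) and the region took a median of 14.5% of it.

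The share at promoters differed with distance, while the median height varied little. Near regions, within 5 kb of a wild type NPC peak, were at a promoter in 48.1% of cases (46.2 to 50.0), those from 5 to 100 kb away in 33.2% (30.7 to 35.8) and those beyond 100 kb in 39.2% (36.3 to 42.2). The median folds of the 3 groups were 3.94, 3.88 and 3.98 and their median widths 271, 261 and 254 bp. At the edge of the rule, 293 regions (5.93%) had a wild type peak within 100 bp, at a median of 44 bp and with a median fold of 3.82. Just outside it, 405 peaks were left out although at most 100 bp of them was covered, with a median of 58 bp and a median fold of 3.83.

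Among genes, 1631 of 22232 protein-coding genes (7.34%) had a shPCGF5-alone peak at a promoter. For 955 of them a wild type NPC peak lay at the same promoter and for 197 a wild type ES peak only. The remaining 479, which are 2.15% of all genes, had no wild type H3K27me3 peak there. The wild type-alone peaks gave like numbers, with 1597 genes (7.18%), of which 632 had no peak of shPCGF5 NPC or wild type ES. Both kinds of peak were found at 339 promoters. More than 1 region was common, since 416 genes had 2 or more at a promoter, 95 had 3 or more and 25 had 4 or more.

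Among the genes with no wild type peak were Id1 and Id3, which are targets of BMP signalling. Id1 had 3 regions at its promoter that covered 720 bp, the highest (chr2:152562030-152562313, fold 6.16) in the coding exon 185 bp inside the gene, and no base of the promoter was under a peak in any of the other 3 H3K27me3 lists. Id3 had 5 regions covering 2659 bp. Its promoter had 0 bp under H3K27me3 peaks in wild type ES and wild type NPC and 576 bp in shPCGF5 ES. Kctd15 had a single region of 2245 bp that spanned a start site, at chr7:35436933-35439177 with a fold of 6.16, and 0 bp in the other lists.

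Rgma, a repulsive guidance molecule that is also a BMP coreceptor, had 7 regions covering 3247 bp and none in either wild type list. Its promoter had 932 bp under peaks in shPCGF5 ES. The regions of Rgma ran on into the first part of the gene, and all lay more than 300 kb from a wild type NPC peak, as at chr7:80518056-80519386, where the distance was 365608 bp. Hmga2, which codes for a chromatin protein of undifferentiated cells, had 5 regions covering 2557 bp, with 0 bp in both wild type lists and 562 bp in shPCGF5 ES.

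Igdcc3, a gene of the immunoglobulin superfamily, had 2775 bp under 3 regions at its start sites, 0 bp in the wild type lists and 201 bp in shPCGF5 ES. Inside the same gene lay the widest of all the regions, 2495 bp at chr9:65009616-65012110 with a fold of 7.58, 37952 bp from a wild type NPC peak. Cdh6, a cadherin, had 4 regions covering 1084 bp with 0 bp in the other 3 lists. Fzd10, a Wnt receptor, had 3 regions covering 1048 bp, also with 0 bp in the others. Of other genes named by score, Phf21a, a reader protein of a histone demethylase complex, and Tnrc18 had regions with folds of 3.89 and 6.02, and 1700093K21Rik had one of 6.47.

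At Meis1, Meis2 and Zeb2, shPCGF5-alone peaks lay at promoters that already had a wild type peak in 1 cell state. Meis1 and Meis2 code for homeobox partners of Hox proteins. At Meis1, 8 regions covered 2849 bp, and H3K27me3 peaks covered 0 bp in wild type ES, 0 bp in shPCGF5 ES, 310 bp in wild type NPC and 4002 bp in shPCGF5 NPC. At Meis2 the same lists gave 936, 656, 0 and 2322 bp. Zeb2, a repressor that binds SMAD proteins, had 656, 1263, 0 and 3376 bp, and 5 of the 6 shPCGF5 NPC peaks there were shPCGF5-alone.

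**Figure D2:**
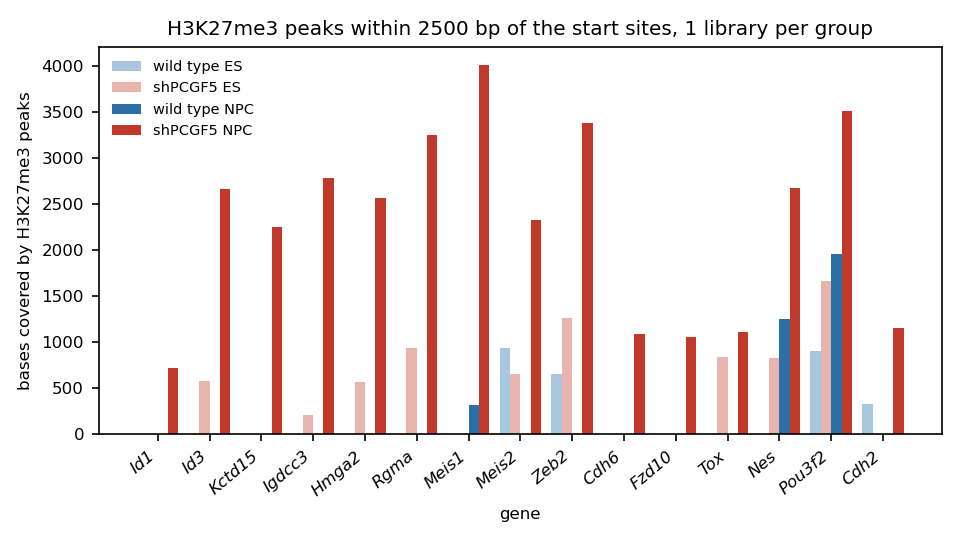
Bases within 2500 bp of the start sites that were covered by H3K27me3 peaks in wild type ES, shPCGF5 ES, wild type NPC and shPCGF5 NPC, for 15 named genes (1 library per group, no error bars). Most of the genes were picked for having no wild type peak or many bases under the regions, so the low wild type bars follow from the choice, and shPCGF5 NPC covered between 720 bp at Id1 and 4002 bp at Meis1.

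Of the genes that the study examined, Nes, Pou3f2 and Cdh2 had shPCGF5-alone peaks at their promoters and Nodal, Lefty1 and Lefty2 had none. Nes, which codes for the intermediate filament nestin, had 2 regions. Its promoter had 0 bp under H3K27me3 peaks in wild type ES, 822 bp in shPCGF5 ES, 1252 bp in wild type NPC and 2670 bp in shPCGF5 NPC. Pou3f2, a neural POU factor, had 2 regions and 901, 1657, 1953 and 3510 bp in the same order. Cdh2, N-cadherin, had 2 regions and 330, 0, 0 and 1153 bp. Nodal had 0 regions at its promoter, with 1379 bp under peaks in wild type NPC and 0 bp in the other lists. Lefty1 and Lefty2, Nodal antagonists, had 0 regions each, and wild type NPC had 1638 and 698 bp there against 0 and 0 in shPCGF5 NPC. Sox1 is not in the annotation used.

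Gene lists were set beside the share of all genes, 7.34%, as a description. The lists were chosen with earlier results of these data known. Of 32 lists, 27 lay above that share and 5 below. For 17 the interval lay wholly above it and for 3 wholly below. Axon guidance ligands and receptors had the highest share, with 28 of 71 genes (39.4%, 28.9 to 51.1), and Nrp2, Slit1, Plxnc1 and Ntn1 among those with the highest scores. The wild type-alone peaks marked 12 of the same 71 (16.9%). A region and no wild type H3K27me3 peak at the promoter were found for 4 of the 71, and wild type NPC had a peak at 40. Cadherins and protocadherins followed with 24 of 62 (38.7%, 27.6 to 51.2), among them Cdh6, Celsr2 and the clustered gene Pcdhgc5. The wild type-alone peaks marked 15 of the 62, and 2 of the 62 had a region and no wild type peak at the promoter. Overlapping start sites of the protocadherin cluster share regions, so the genes of that cluster are not independent.

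Signalling pathways were also above the share of all genes. The wild type-alone peaks were above their own share of all genes, 7.18%, in these lists too. They marked 10 of 47 Wnt genes, 8 of 34 BMP genes, 9 of 41 Nodal and TGF-beta genes and 4 of 21 Notch genes. An shPCGF5 NPC H3K27me3 peak of any kind was at 35 of the 47 Wnt genes, against 15.5% of all genes. In the Wnt pathway 17 of 47 genes (36.2%, 24.0 to 50.5) had a region, with 4 of them, Dkk3, Fzd10, Fzd2 and Wnt8a, lacking a wild type peak. In the BMP pathway 9 of 34 genes (26.5%, 14.6 to 43.1) had one, among them the antagonists Nog and Grem1, and Id1 and Id3 lacked a wild type peak. The Nodal and TGF-beta pathway had 8 of 41 (19.5%, 10.2 to 34.0). There the receptors Acvr1b and Tgfbr2, the inhibin subunit gene Inha and the ubiquitin ligase gene Smurf1 had a region and no wild type peak. The Tgfbr2 region was 318 bp wide with a fold of 5.23. In the Notch pathway 7 of 21 genes had a region, Lfng and Jag1 included.

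Of neural progenitor factors and markers, 13 of 36 (36.1%, 22.5 to 52.4) had a region, and Pou3f2, Nes, Pou3f3, Zic4, Pax3 and Gbx2 had the highest scores. Msi1, an RNA-binding protein of neural progenitors, Ncam1, a neural adhesion molecule, and Sox3 were the 3 without a wild type peak. Sox factors as a family had 6 of 18 (33.3%, 16.3 to 56.3) against 1 of 18 for the wild type-alone peaks. Neuronal genes had 3 of 28 (10.7%, 3.71 to 27.2) and proneural basic helix-loop-helix factors 3 of 20. The wild type-alone peaks marked 8 of 36 neural progenitor genes, 6 of 28 neuronal genes and 7 of 20 proneural factors. Polycomb genes had 9 of 34 (26.5%, 14.6 to 43.1), among them Phc2 and Cbx8, subunits of complex 1, and Cbx2 and Pcgf1, which lacked a wild type peak.

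Channels, neurotransmitter receptors, collagens and solute carriers were lists with shares above that of all genes, though the interval for sodium and calcium channels held it. Potassium channels had 20 of 80 genes (interval 16.8 to 35.5%), with Kcnh2 and Kcnn4 lacking a wild type peak, and the wild type-alone peaks marked 17 of 80. Neurotransmitter receptors had 21 of 96 (21.9%, 14.8 to 31.1), among them the glutamate receptor genes Grm6, Grin3b, Grin2b and Grin2a, and 4 of them, Drd2, Grik2, Grik4 and Htr5a, lacked a wild type peak. The wild type-alone peaks marked 24 of the 96 receptor genes. Sodium and calcium channels had 6 of 39 (15.4%, 7.25 to 29.7) against 11 of 39 for the wild type-alone peaks. Collagens had 11 of 43 (25.6%, 14.9 to 40.2), and Col1a2, a chain of type I collagen, was the one without a wild type peak. Solute carriers had 41 of 353 (11.6%, 8.68 to 15.4).

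Lists of regulators of other lineages were small and most had wide intervals. Mesoderm and endoderm regulators had 5 of 33 (15.2%, 6.65 to 30.9), namely Foxa3, Gata4, Foxa2, Hand1 and Gata5, and each of these promoters also had a wild type peak. The wild type-alone peaks marked 8 of the 33. T-box factors had 3 of 16, forkhead factors 5 of 43 and GATA factors 2 of 6. The wild type-alone peaks marked 5 of the 16, 5 of the 43 and 2 of the 6. Homeobox families other than Hox had 21 of 97 (21.6%, 14.6 to 30.8), of which Nkx6-3 lacked a wild type peak. Fibroblast growth factors with their receptors had 7 of 29 against 11 of 29 for the wild type-alone peaks, and the Hedgehog pathway had 4 of 14, with Gas1, Gli3, Boc and Ptch1. Imprinted genes had 5 of 33, with Ndn lacking a wild type peak, and trophoblast and extraembryonic regulators had 3 of 15. The wild type-alone peaks marked 6 of the 33 imprinted genes and 5 of the 15 trophoblast and extraembryonic regulators. They marked fewer than the regions did among homeobox families other than Hox, 15 of 97, and in the Hedgehog pathway, 2 of 14.

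The share of Hox genes, 3 of 39 (7.69%, 2.65 to 20.3), was close to that of all genes, and 39 of 39 had a peak in shPCGF5 NPC and 38 in wild type NPC. The 5 lists below the share of all genes follow. Pluripotency factors had 1 of 24, Klf4, while wild type-alone peaks marked 11 of 24 (45.8%). Replication-dependent histones had 2 of 67. The intervals of these lists, 0.739 to 20.2% and 0.822 to 10.2%, held the share of all genes. Wholly below it were olfactory and vomeronasal receptors with 4 of 1434 (0.279%), ribosomal proteins with 1 of 80 and zinc finger genes named Zfp with 15 of 367 (4.09%). Fibroblast and feeder markers, listed because ES were grown on mouse fibroblasts, had 2 of 15, a share above that of all genes with an interval of 3.74 to 37.9%.

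**Figure D3:**
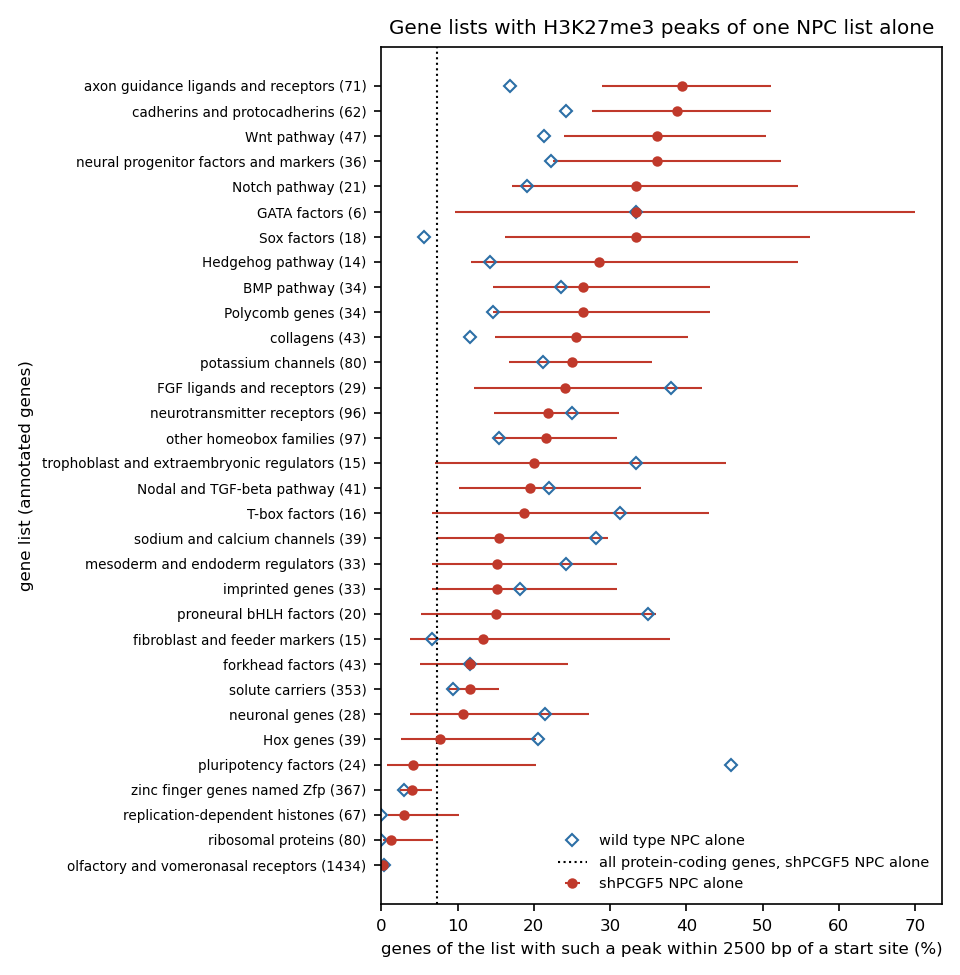
Percentage of the genes of each of 32 lists with a shPCGF5-alone peak (circles, 95% Wilson intervals) or a wild type-alone peak (diamonds) at a promoter, with the number of annotated genes of the list in brackets and the share of all protein-coding genes as a dotted line. Axon guidance genes (39.4%) lie at the top and olfactory and vomeronasal receptors (0.279%) at the bottom.

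The regions were clustered at some loci. Joined within 10 kb they made 3204 clusters, of which 2283 (71.3%) held a single region and 99 held 5 or more. The largest, with 15 regions in 30128 bp at chr4:115626171-115656298, lay 28704 bp from Dmbx1, a homeobox gene of the midbrain, and also held 8 wild type NPC peaks. The second differed in that it held none. At chr4:135680412-135707142, 14 regions with folds of 3.26 to 6.60 lay around Id3 from 18902 bp upstream to 7631 bp downstream of the start site, and the same span held 1 wild type ES peak. A cluster of 13 regions at chr3:87752772-87794164 took in Nes and Crabp2, which codes for a carrier of retinoic acid, with 8087 bp under the regions and 1 wild type NPC peak. Clusters of 14 regions at Nr2f1, an orphan nuclear receptor, and of 12 at Pcdhgc5 held 9 and 7 wild type NPC peaks.

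Most of the regions were overlapped by no peak of the other 7 lists, which hold H3K27me3 of shPCGF5 ES, H2AK119ub1 and Flag-PCGF5. This was so for 3739 of them (75.7%, 74.5 to 76.9), and 951 (19.3%) were in 1 of those lists. A peak of any of the 4 H2AK119ub1 lists overlapped 663 (13.4%, 12.5 to 14.4). Such counts were not made for all shPCGF5 NPC H3K27me3 peaks. H3K27me3 of shPCGF5 ES overlapped 504 (10.2%, 9.39 to 11.1), against 31.1% of all shPCGF5 NPC H3K27me3 peaks. The share for H2AK119ub1 was 3.16% in wild type ES, 5.71% in shPCGF5 ES, 3.75% in wild type NPC and 3.75% in shPCGF5 NPC, where the whole list had 17.2%, 18.3%, 22.9% and 15.2%. All these shares lay below those of the list, which also holds the peaks shared with wild type that the rule leaves out. For the wild type-alone peaks H3K27me3 of shPCGF5 ES gave 6.60%. Their H2AK119ub1 shares were 1.76%, 3.42%, 11.1% and 3.47% in the same order. Flag-PCGF5 of ES overlapped 9 (0.182%, whole list 0.298%), and Flag-PCGF5 of NPC 188 (3.81%, whole list 5.83%). Since wide peaks have more room to overlap and the regions are narrow, these shares move with width, and the part of width in them was not tested.

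**Figure D4:**
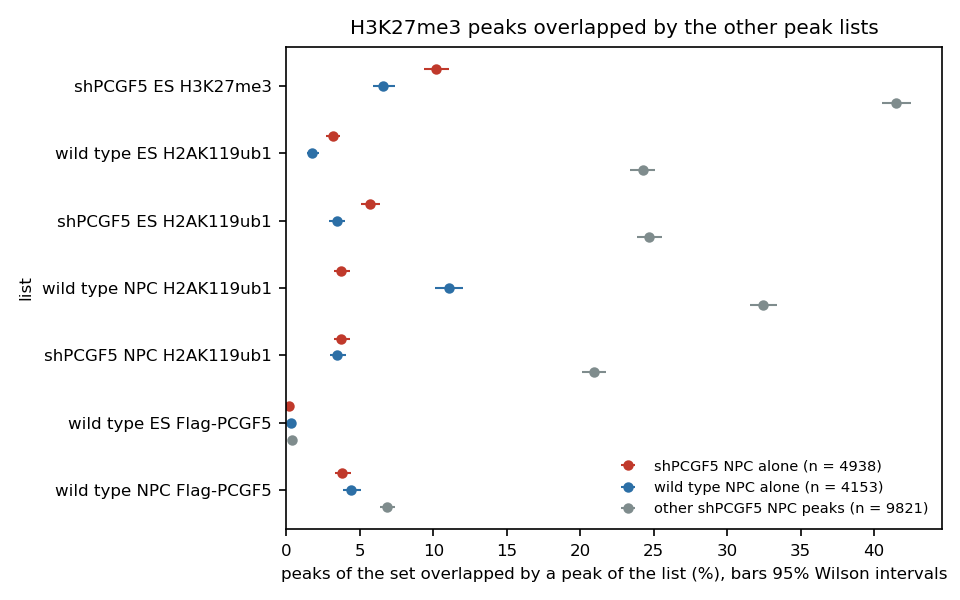
Percentage of the 4938 shPCGF5-alone peaks, the 4153 wild type-alone peaks and the other 9821 shPCGF5 NPC H3K27me3 peaks that overlapped a peak of 7 other lists by at least 1 bp, with 95% Wilson intervals. For wild type NPC H2AK119ub1 the shPCGF5-alone peaks were at 3.75% and the wild type-alone peaks at 11.1%.

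The H2AK119ub1 lists of wild type and shPCGF5 NPC overlapped mostly different regions. Each NPC list overlapped 185 regions, and 30 (0.608%) were in both. That left 155 in shPCGF5 NPC and not wild type NPC and another 155 the reverse. Whether 30 differs from what unrelated lists would share was not tested, and the same split was not made for the whole list. The shares also differed by distance. Near regions were overlapped by H2AK119ub1 of wild type NPC in 4.62% of cases and of shPCGF5 NPC in 2.50%, while regions over 100 kb from a wild type NPC peak gave 3.14% and 6.76%. Part of the far share lay on the Y chromosome, where 17 of the 185 were found, and without chromosomes X and Y 159 of 4854 regions (3.28%) remained. At the wild type-alone peaks, H2AK119ub1 of wild type NPC overlapped 11.1% and that of shPCGF5 NPC 3.47%.

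At promoters, the region with the highest score under H2AK119ub1 of shPCGF5 NPC was that of Cntfr. Next came 2510009E07Rik and Cyp26a1, an enzyme that degrades retinoic acid, with folds of 6.15 and 6.69 for H3K27me3. The Id3 region printed above (chr4:135699806-135700319, fold 5.41) was also under H2AK119ub1 of shPCGF5 NPC and not of wild type NPC, as were regions of Tnrc18, Prtg, Gcm2 and Gas1, a Hedgehog coreceptor. Flag-PCGF5 of NPC overlapped regions at Sp6, Meis2, Ppp1r1b, Id1, Adcy6, Dach1, Cdh6, Nefm, Ddr1 and Plxnd1, in order of score. At Id1 the Flag-PCGF5 peak took up 1454 bp of the promoter with a fold of 1.96, and at Cdh6 1443 bp with a fold of 2.45.

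The 479 genes without a wild type H3K27me3 peak can be set against all genes. H3K27me3 of shPCGF5 ES was at 120 of their promoters (25.1%, 21.4 to 29.1), compared with 12.9% of all genes. H2AK119ub1 of shPCGF5 ES was at 49 (10.2%, 7.82 to 13.3), compared with 5.96%, and H2AK119ub1 of wild type ES at 27 (5.64%, 3.90 to 8.08), compared with 6.69%. H2AK119ub1 of shPCGF5 NPC was at 25 (5.22%, 3.56 to 7.59), compared with 4.17%, and H2AK119ub1 of wild type NPC at 10 (2.09%, 1.14 to 3.80), compared with 4.98%. Flag-PCGF5 of NPC was at 87 (18.2%, 15.0 to 21.9), compared with 13.7%. None of these differences was tested. The 479 genes were chosen for an shPCGF5 NPC peak and no wild type peak, so shPCGF5 and wild type lists do not stand alike here. The 1152 genes with a region and a wild type peak had higher shares for every list. Theirs were 68.8% for H3K27me3 of shPCGF5 ES, 28.6% for H2AK119ub1 of shPCGF5 ES and 22.8% for Flag-PCGF5 of NPC.

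The CpG ratio is the observed over the expected number of CpG. Its median in the regions was closer to the value of the assembly than to the median of the other shPCGF5 NPC peaks. Median GC content was closer to that of the other peaks. The median CpG observed to expected ratio was 0.216 (0.209 to 0.223), the whole assembly gave 0.191, and the other shPCGF5 NPC peaks had a median of 0.424 (0.415 to 0.432). The regions had a median GC content of 50.0%, against 41.8% for the assembly and 55.1% for the other peaks. The assembly values are pooled over all bases and are not medians of short stretches. Genomic stretches as wide as the regions were not measured. A CpG-rich sequence, with more than 50% GC and a ratio above 0.6, was found in 368 regions (7.45%, 6.75 to 8.22) and in 27.4% of the other peaks. The wild type-alone peaks had a ratio of 0.284 (0.273 to 0.295) and were CpG-rich in 16.7%.

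At promoters the ratio of the shPCGF5-alone peaks was 0.258 (0.246 to 0.271), and elsewhere 0.190 (0.181 to 0.197). It was highest, at 0.294 (0.270 to 0.318), for the 606 regions at promoters without a wild type peak, 14.9% of which were CpG-rich. For regions within 5 kb, from 5 to 100 kb and over 100 kb from a wild type NPC peak the median ratios were 0.220, 0.210 and 0.210, and the CpG-rich shares 6.42%, 7.21% and 10.3%. Outside promoters the ratio was 0.205 (0.195 to 0.218) within 5 kb and 0.155 (0.136 to 0.174) over 100 kb away. Simple repeats took part of the sequence. Exact repeats of units of 1 to 6 bases, in runs of 20 bases or more, made up at least 50 bp of 455 regions (9.21%, 8.44 to 10.1) and of 12.6% of the other peaks, which are wider. As a share of bases the order was the reverse, with 4.25% in the regions and 2.89% in the other peaks. Of the wild type-alone peaks 12.4% held at least 50 bp, and such repeats made up 4.78% of their bases. Among regions over 100 kb from a wild type NPC peak and not at promoters, the share of regions with at least 50 bp was 15.8% (13.2 to 18.8), and among those within 5 kb and not at promoters 8.07% (6.72 to 9.66). Away from promoters the other shPCGF5 NPC peaks had 18.1% and the wild type-alone peaks 20.7%, so this was not particular to the far regions.

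**Figure D5:**
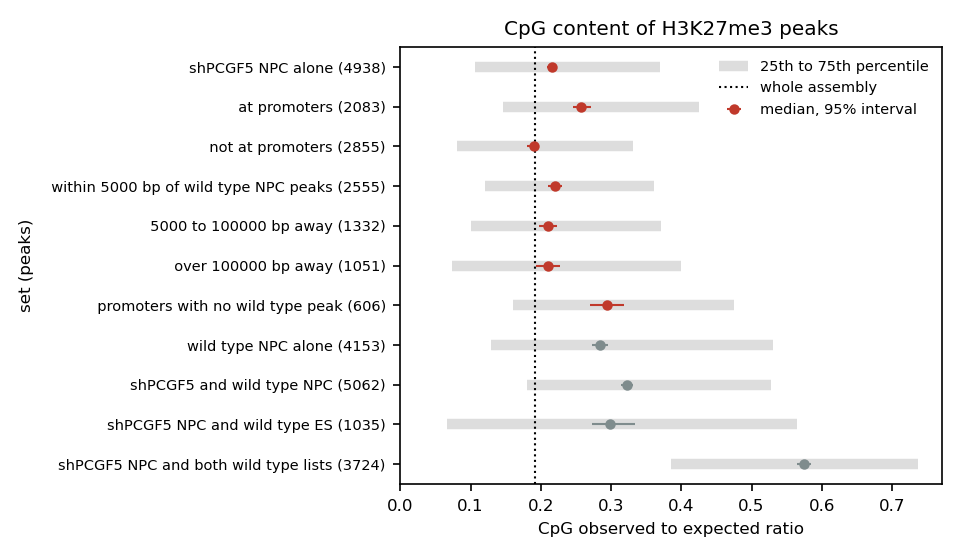
CpG observed to expected ratio of H3K27me3 peaks by set, as the median with its 95% interval (points) and the 25th to 75th percentile (grey bars), with the number of peaks in brackets and the whole assembly as a dotted line. The shPCGF5-alone peaks have a median of 0.216 and the peaks shared with both wild type lists one of 0.575.

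On chromosomes 1 to 19 between 26.0% (chromosome 6) and 42.1% (chromosome 18) of the shPCGF5 NPC peaks were in the set. The Y chromosome stood apart, with 26 of its 31 shPCGF5 NPC peaks in the set. These had a median fold of 1.80, and 25 of them were over 100 kb from a protein-coding start site, between 2396773 and 2897691 on chrY. The wild type NPC list held 2 peaks on the Y chromosome, the wild type ES list 15 and the shPCGF5 ES list 0. On the X chromosome 58 of 152 peaks were in the set, with a median fold of 3.39.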

How the data were processed

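ChIP-seq peak lists of 10 libraries, 1 per group, were analysed, and the 6 input libraries were not used here. Per the study's methods and the labels, the authors trimmed reads with Trimmomatic, used Bowtie2 for alignment to mm9 and Picard to drop duplicates, and ran MACS2 (version 2.1.0) on each library by itself. Chromatin was digested with micrococcal nuclease for the histone marks and sonicated for Flag. The deposited lists give each peak a score, its −log10 p-value and −log10 q-value, and a fold enrichment ratio over background, with a summit position that was not used. Scores rank peaks within a list only. The length of a list also depends on depth and background, and neither is given in the lists.

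Overlap meant 1 bp or more, and overlaps were checked with bedtools 2.31.1 and tested on simulated data. Python 3.11.15 and numpy 2.4.6 were used. Genes, coding exons and sequence came from GENCODE M1 and NCBIM37, the build of the lists, and 0 of 86279 peaks ran past a chromosome end. A promoter was 2500 bp on either side of a protein-coding start site. Shares have 95% Wilson intervals and medians order-statistic intervals. Samples were grouped by title. Named genes were the 10 highest-scoring and 10 widest regions, the 10 genes with the most bases, the 10 best at promoters without wild type peaks, with H2AK119ub1 of shPCGF5 NPC or with Flag-PCGF5 of NPC, the 5 largest clusters, the 5 best far regions, up to 6 per gene list, and Nodal, Lefty1, Lefty2, Sox1, Nes, Cdh2 and Pou3f2. Genes outside these rules, such as Msi1, Ncam1, Inha, Cbx2, Pcgf1, Dkk3, Wnt8a and Drd2, were named after their values were seen. Some items that the rules name are not reported here. The regions, the gene lists and the named genes were chosen with earlier results of these data known. In 12 alternatives the overlap rule, list lengths, caller threshold, merging, chromosomes and promoter window were changed.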

Additional observations from a re-analysis of the deposited data

Results flagged for a closer look

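The number of shPCGF5-alone peaks overlapped by H2AK119ub1 changed in opposite directions between genotypes in ES and NPC for the regions within 5 kb of a wild type NPC H3K27me3 peak. In ES shPCGF5 had 27 more than wild type (115 against 88 of 2555), and in NPC the difference, shPCGF5 minus wild type, was -54 (64 against 118). Among regions at promoters the difference was 25 in ES (90 against 65 of 2083) and -6 in NPC (43 against 49). These directions were not particular to the regions. Of all 14759 shPCGF5 NPC H3K27me3 peaks, shPCGF5 H2AK119ub1 overlapped 2706 in ES against 2538 for wild type. In NPC the counts were 2239 against 3374. Regions over 100 kb away rose in both, from 23 to 79 of 1051 in ES and from 33 to 71 in NPC. Among all regions, those on the Y chromosome gave 17 overlaps for shPCGF5 NPC and 0 for wild type NPC. The distance groups are set by wild type NPC H3K27me3, and the part of that choice in the counts was not tested. The difference between ES and NPC was not tested, with 1 library per group. The H2AK119ub1 lists also differ in length, with 8672 and 7170 peaks in wild type and shPCGF5 ES and 5754 and 3845 in NPC, and the part of list length was not tested.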

How the results depend on the processing

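Of 87 values under 12 alternatives, 47 stayed within the interval of the reported value, or within 1.5 times of a count, and 40 moved. The count of 4938 regions fell to 2837 when a wild type peak within 1000 bp counted as overlap, 1514 with the higher-scoring 50% of the list, 3233 with a list as long as the wild type NPC list, 3250 with equal lists, 1920 at a −log10 q-value of at least 5 and 2855 with peaks within 1000 bp merged. The promoter share (42.2%) became 45.0% when a region could be covered up to 50%, 32.6% with the 1000 bp rule, 35.0% after merging and 19.4% within 1000 bp of a start site. The share within 5 kb (51.7%) became 58.9%, 26.8% and 31.8%, and the median distance 1740, 37834 and 28082 bp, under the first 3 of those rules in order. By construction the 1000 bp rule removes the nearest regions.

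Overlap with H3K27me3 of shPCGF5 ES was 13.7% with the 50% rule, 7.61% with the 1000 bp rule, 13.3% in the higher-scoring 50%, 11.1% with the list as long as wild type NPC, 11.2% with equal lists, 12.1% at the stricter q-value and 5.81% where 50% of the region had to be covered. For H2AK119ub1 of shPCGF5 NPC the values in that order were 4.71%, 4.55%, 7.0%, 4.86%, 4.86%, 6.67% and 2.11%, and 4.55% after merging. Flag-PCGF5 of NPC moved to 5.15% in the higher-scoring 50%, 4.58% at the stricter q-value and 2.73% where 50% had to be covered. The 479 genes without a wild type peak fell to 173 and 214 in the higher-scoring 50% and at the stricter q-value, where fewer peaks enter. The CpG ratio was 0.233, 0.199, 0.208 and 0.203 with the 50% rule, the 1000 bp rule, the higher-scoring 50% and merging. Leaving out regions in shPCGF5 ES H3K27me3 makes that overlap 0 by construction and was not run for it. No paired analysis was possible because each group has 1 library. Leaving out a replicate was not possible for the same reason.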

Other observations

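Other genes named for wide regions or covered bases were Foxb1, St8sia2, Crabp2, Cntnap1 and Cacna2d2. Foxb1, a forkhead factor, was the gene with the nearest start site for 2 of the 10 widest regions, 1702 bp at chr9:69609439-69611140 and 1596 bp at chr9:69517284-69518879, with folds of 6.10 and 4.68. Its promoter had 1210 bp under H3K27me3 peaks in wild type ES, 1933 bp in shPCGF5 ES, 547 bp in wild type NPC and 4195 bp in shPCGF5 NPC. St8sia2, which codes for an enzyme that adds polysialic acid to NCAM, had 874, 0, 298 and 2073 bp in the same order. Crabp2, Cntnap1, an axonal contact protein, and Cacna2d2, a calcium channel subunit, had regions of 2055, 1537 and 1502 bp outside the promoter, the first 2 in an intron and the last 20508 bp upstream.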
